A study of Mus musculus with 15 samples.

Results

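Wif1 and 9 genes that respond to Wnt signalling in liver were followed through 3 groups of mouse livers. They were taken by name from the array: every probe that is not a control and carries the symbol Wif1, Axin2, Nkd1, Lgr5, Tbx3, Glul, Rhbg, Oat, Slc1a2 or Lect2. All 10 genes were found, on 14 probes, among 22032 gene symbols on 29522 probes. Of the 10 genes, 7 have a single probe.

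The livers came from male CD1 mice. Group C (the samples labelled control) received saline and later an empty plasmid. Group T received diethylnitrosamine (DEN), a carcinogen that induces hepatocellular carcinoma (HCC), at day 15 and the empty plasmid later on. Group G had DEN in the same way and then the plasmid pcDNA3/CAG-HAGas1, which drives an HA-tagged Gas1 from the CAG promoter. All groups went through weekly hydrodynamic gene delivery (HGD) from week 28 to week 34, with 50 μg of plasmid each time, so the controls also carry the effects of the injections. The study's methods place the livers at week 35, whereas the sample records give an age of 10 weeks. HGD reaches a fraction of the liver cells, mostly near blood vessels, and each array read RNA of a whole liver sample, transfected or not. There were 15 arrays, 4 of C, 5 of T and 6 of G. Arrays 3 and 4 of C share an RNA code, as do arrays 4 and 5 of T, and each such pair was averaged as 1 mouse (named C3 and T4), which left 3, 4 and 6 mice. The records do not say that the remaining samples are separate animals, and the p-values measure the spread between them.

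Wnt proteins bind Frizzled and LRP receptors on the cell surface and stabilise β-catenin, which then switches on target genes together with TCF/LEF factors. WIF1 is a secreted protein that binds Wnt ligands and keeps them from their receptors. In the liver, Wnt signals from the endothelium of the central vein maintain a pericentral programme in the nearest hepatocytes, which includes glutamine synthesis and ammonium uptake, and β-catenin mutations in liver tumours switch the same programme on.

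Wif1 is the gene on which the comparisons turned, and it was read by 1 probe of 60 bases at chr10:120537079-120537138 of mm9, on the forward strand. The first 30 bases of that probe, shown because all Wif1 values below come from it, read 5′ to 3′ as follows, followed by the first 30 bases of the 3 probes of Slc1a2, which are shown because their differences did not all have the same sign. The Slc1a2 probes lie at chr2:102617752-102617811, chr2:102622252-102622311 and chr2:102626380-102626439, all on the forward strand of mm9.
Wif1 probe: ggctgatatctactcttccttttaggtttt
Slc1a2 probe 1: aagcaactctaatcagtgtgtctatgccgc
Slc1a2 probe 2: gtagaatgtttcagagtttcatgggtgccc
Slc1a2 probe 3: aacccagtttccagcattcagacatcagta

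RefSeq promoter sequences of GRCm38.p6 were at hand for 7 of the 10 genes (Lgr5, Tbx3 and Rhbg had no entry). In the 250 bases before each start, both strands were searched for CTTTGAT and CTTTGTT, letters bound by TCF/LEF factors. Of all 32851 promoters, 3.21% hold the first, 5.03% the second and 8.06% either. Slc1a2 and Lect2 hold CTTTGAT once each, on the strand opposite to the gene, so that it reads ATCAAAG along the gene. Their promoters are shown in the direction of the gene with the match in capitals. In Slc1a2 (chr2:102706188-102706437, forward strand) the match begins 207 bases before the start, and in Lect2 (chr13:56548539-56548788, reverse strand) 32 bases before it. The letters were not in these 250 bases of Wif1 (chr10:121033754-121034003, forward strand), Glul (chr1:153899679-153899928, forward strand), Axin2, Nkd1 or Oat. The sequences of Wif1, the gene that differed between groups, and of Glul, the best known pericentral gene, are given for comparison. GC content was 62.8% in Wif1 and 64.8% in Glul, against 44.8% in Slc1a2 and 48% in Lect2. A match is a description of these letters and not a measured binding site.
Slc1a2: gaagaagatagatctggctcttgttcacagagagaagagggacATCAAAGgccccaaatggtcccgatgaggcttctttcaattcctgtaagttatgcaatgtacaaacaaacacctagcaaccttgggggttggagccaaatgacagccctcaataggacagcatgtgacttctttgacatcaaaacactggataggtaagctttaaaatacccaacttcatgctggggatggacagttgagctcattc
Lect2: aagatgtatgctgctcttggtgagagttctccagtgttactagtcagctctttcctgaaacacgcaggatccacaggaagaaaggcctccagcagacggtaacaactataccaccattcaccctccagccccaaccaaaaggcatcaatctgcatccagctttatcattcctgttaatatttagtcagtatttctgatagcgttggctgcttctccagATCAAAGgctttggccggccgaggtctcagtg
Wif1: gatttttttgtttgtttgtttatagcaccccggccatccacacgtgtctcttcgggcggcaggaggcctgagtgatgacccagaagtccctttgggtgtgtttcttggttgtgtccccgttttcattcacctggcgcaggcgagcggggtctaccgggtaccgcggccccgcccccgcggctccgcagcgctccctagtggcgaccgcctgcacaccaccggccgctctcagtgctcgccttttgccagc
Glul: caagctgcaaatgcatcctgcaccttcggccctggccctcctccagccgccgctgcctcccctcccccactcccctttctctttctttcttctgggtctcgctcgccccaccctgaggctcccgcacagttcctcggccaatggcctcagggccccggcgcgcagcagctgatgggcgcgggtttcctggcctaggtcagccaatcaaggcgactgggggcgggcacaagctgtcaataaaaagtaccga

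The number of spots well above background ranged from 15707 to 27681 in group C, from 19970 to 22638 in T and from 18041 to 29765 in G, and no spot was saturated. Hepatocyte markers were well above background in all groups, and Ttr, the thyroid hormone carrier transthyretin, was the one of 10 called between T and C (log2 difference -1.004, SE 0.124, limma adjusted p = 0.00425, but 0.18 with adjusted p = 0.718 under median scaling). With the log2 values that the authors deposited, the Ttr difference was -0.61 (limma adjusted p = 0.106), and its call held under 27 of 34 alternatives. At an unadjusted p under 0.05, 4 of the 10 were higher in T than in C (among them Apoa1 by 0.55 and Tdo2 by 0.68, adjusted p = 0.0657 and 0.0634) and 2 were lower, and 3 differed between G and T and 3 between G and C. Of 8 macrophage markers, Emr1 rose (log2 0.31, SE 0.0600, adjusted p = 0.0267, and 0.0905 with cyclic loess) and Cd68 stood at -0.25 (SE 0.0778, adjusted p = 0.101), both in T minus C. Unadjusted p under 0.05 were found for 4 (3 higher, 1 lower), 0 and 4 (3 higher, 1 lower) of the 8 in T minus C, G minus T and G minus C, and the mean level of the list ranged from 7.36 to 7.71 in C, 7.61 to 8.07 in T and 7.59 to 7.98 in G. No marker of cholangiocytes (8), endothelium (10), stellate cells or fibroblasts (9) or lymphocytes (9 on the array) was called by limma in any comparison. In T minus C, G minus T and G minus C, unadjusted p under 0.05 were found for 3 (all lower), 3 (2 higher) and 3 (1 higher) cholangiocyte markers. They were found for 1, 0 and 1 of endothelium (higher), 2 (lower), 2 (higher) and 1 (lower) of stellate cells or fibroblasts and 2, 0 and 2 of lymphocytes (higher). Of all genes, 20.2%, 10.8% and 13.3% had one in these comparisons, and 2.37%, 0.132% and 0.427% were called. The mean level of the cholangiocyte list was 6.855 to 6.895 in C, 6.616 to 6.833 in T and 6.792 to 6.992 in G. For lymphocytes it was 6.617 to 6.721, 6.731 to 6.793 and 6.662 to 6.802. C and T did not overlap in these lists, but did in the other cell type lists. Of all genes taken singly, 19.1% had no overlap between T and C. In whole liver RNA, fewer cells of a type and less RNA per cell cannot be told apart. The part of cell composition in the results below was not tested. Gas1 itself, on 3 probes, lay between 6.31 and 6.79 on the log2 scale in all mice and its level in G was 0.08 above T (SE 0.0780, adjusted p = 0.765). Whether these probes lie inside the delivered Gas1 sequence was not tested, so they are no check of the labels.

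Wif1 rose in the DEN-treated livers of T over C, and it was lower in the livers of G, which had DEN and Gas1, than in those of T. Its level (log2 of the normalized signal) was 6.01, 5.93 and 5.92 in the mice of C. In T it was 6.38, 6.75, 6.41 and 6.69, and in G it was 6.15, 5.88, 6.08, 6.07, 6.09 and 6.01. Every T mouse stood above every mouse of the other groups, while C and G overlapped. The means were 5.95 ± 0.05 (SD, n = 3) in C, 6.56 ± 0.19 (SD, n = 4) in T and 6.05 ± 0.09 (SD, n = 6) in G. T exceeded C by 0.60 (SE 0.0923, limma with Benjamini-Hochberg adjustment over all 22032 genes, adjusted p = 0.0112), and G lay below T by 0.51 (a log2 difference of -0.51, SE 0.0780, adjusted p = 0.0357). The difference between G and C was 0.09 (SE 0.0855, adjusted p = 0.699). The study lists Wif1 among genes it selected on these same samples, so this pattern is not independent evidence. The study also measured Wif1 by qRT-PCR in the same groups, among genes altered in tumours whose levels it reports as restored after Gas1. Those qRT-PCR values were not examined here.

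The Wif1 probe was dim. It was well above background on 5 of 5 arrays of T, on 0 of 4 of C and on 0 of 6 of G, so that outside group T it has only an upper limit. Set against the dimmest signal that still passed as above background on each array, or the probe's own value where higher, Wif1 in T was at least 1.15-fold higher than in C and at least 1.29-fold higher than in G. The size of the log2 difference depended on how background was handled: with the scanner's own processed signal scaled to the 75th percentile it was 2.30 for T minus C (adjusted p = 0.0385) and -2.13 for G minus T (adjusted p = 0.0801), and with a normexp offset of 16 it was 1.09 and -0.90 (adjusted p = 0.00596 and 0.0215). Within the first slide T minus C was 0.76 (adjusted p = 0.0417) and G minus T -0.65 (adjusted p = 0.0799), and within the second slide they were 0.56 (adjusted p = 0.107) and -0.47 (adjusted p = 0.284).

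The T minus C call of Wif1 held when any of the 13 mice was left out, with differences of 0.54 to 0.66 and adjusted p of 0.0037 to 0.0463. The G minus T difference kept its direction in each case (-0.57 to -0.45), but its call was lost in 11 of 13. It was kept without C1 or T1, and lost without C2, C3, T2, T3, T4 or any of the 6 mice of G (adjusted p from 0.0508 without G1 to 0.12 without T4).

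**Figure D1:**
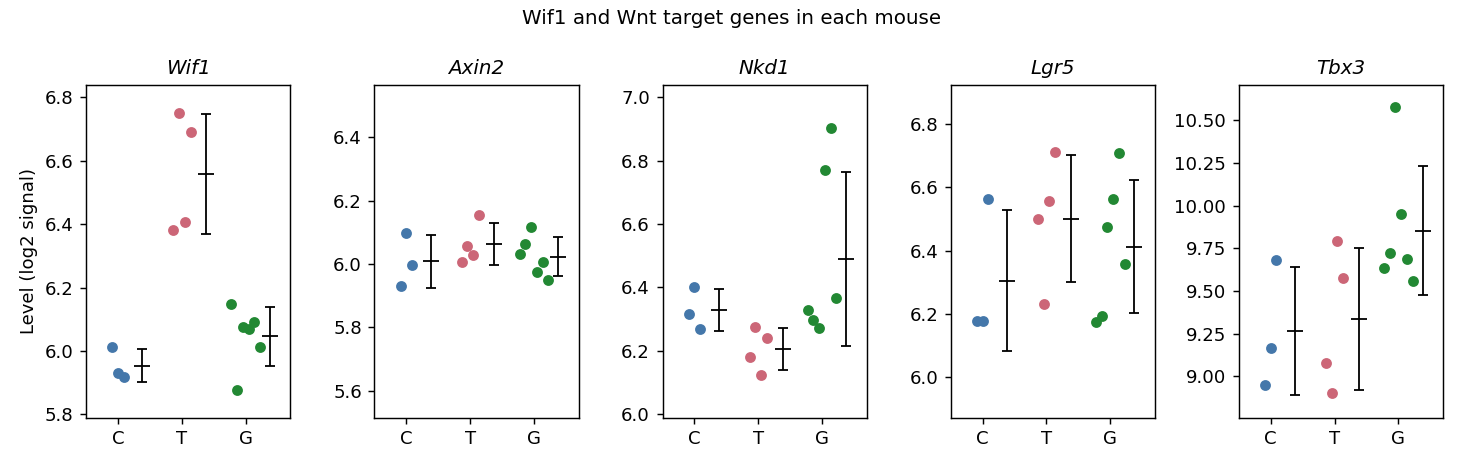
Level (log2 of the normalized signal, y axis, own scale in each panel) of Wif1, Axin2, Nkd1, Lgr5 and Tbx3 in each mouse of groups C (blue, n = 3), T (red, n = 4) and G (green, n = 6), with the group mean and SD in black. The 4 T mice lie apart from the others in Wif1 alone, at 6.38 to 6.75 against 5.88 to 6.15.

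The other 9 genes did not pass the test in any comparison. Between T and C, 1 of 10 was called (Wif1), where 2.37% of all genes tested were called, and the median difference of the 10 was 0.05 beside 0.005 over all genes. Between G and T, 1 of 10 was called (Wif1 again), where 0.132% of all genes were, and Nkd1 and Tbx3 also had an unadjusted p under 0.05, as did 10.8% of all genes. Between G and C, 0 of 10 were called by limma, where 0.427% of all genes were, and 1 (Tbx3) had an unadjusted p under 0.05, as did 13.3% of all genes. The share of all genes in T minus C was 20.2%. The methods' t-test with equal variances called 0 of 10 in each of the 3 comparisons (Wif1 adjusted p = 0.148 in T minus C and 0.174 in G minus T). The study's methods give a test of this kind for cells, animal groups and RT-PCR, and name the multtest package for the arrays. That package was not run here, so these counts of 0 are not the study's own array result. The study reports genes that changed in T against C and were restored in G, with Wif1 among them. One gene, Wif1, had no overlap between T and C (19.1% of all genes had none) and between G and T (3.1%), and 0 of 10 had none between G and C (5.95%).

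**Figure D2:**
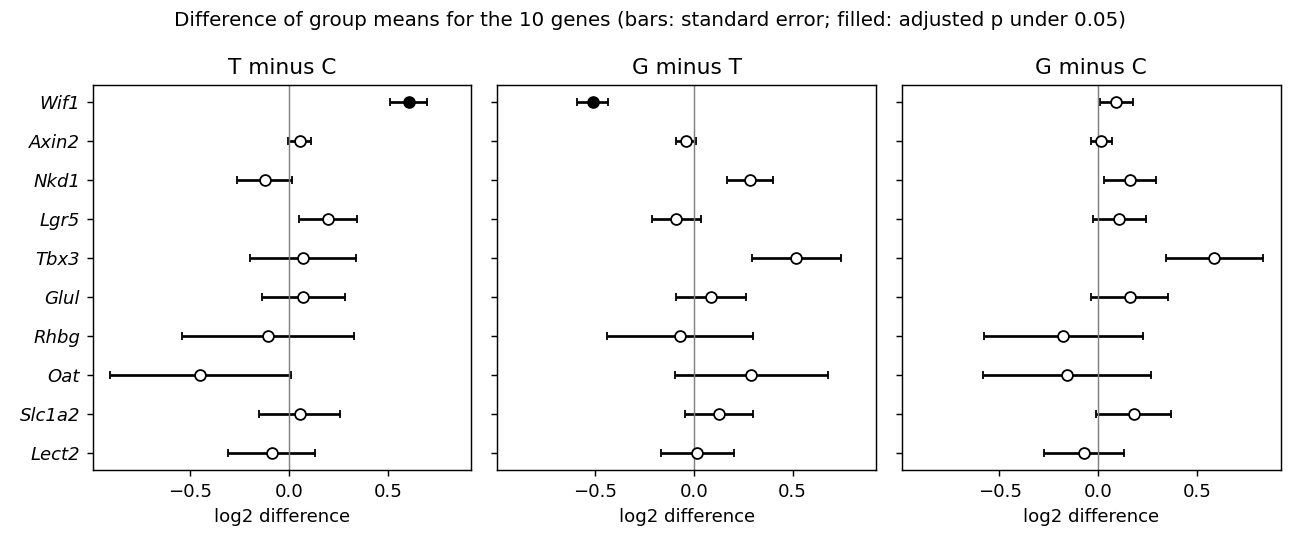
Difference of group means (log2, x axis) for each of the 10 genes (y axis) in T minus C, G minus T and G minus C, with standard errors as bars and filled points for an adjusted p under 0.05. Wif1 is filled at 0.60 and -0.51, and all other points are open.

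Axin2, Nkd1, Lgr5 and Tbx3 are direct Wnt targets in many tissues, and the first 2 also feed back on the pathway. Axin2, a scaffold of the complex that degrades β-catenin, was 6.01 ± 0.08 (SD, n = 3) in C, 6.06 ± 0.07 (SD, n = 4) in T and 6.02 ± 0.06 (SD, n = 6) in G. Its probes were near background: 1 of them was well above it on no array, and the other on 1 of 4, 2 of 5 and 2 of 6 arrays of C, T and G. Differences of Axin2 are therefore between values close to background.

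Nkd1, an inhibitor of Dishevelled, was 6.32, 6.40 and 6.27 in C, 6.18, 6.28, 6.12 and 6.24 in T, and 6.33, 6.30, 6.27, 6.77, 6.90 and 6.37 in G. Mice G4 and G5 stood above all others, but through different probes. On the brighter probe G5 was 7.55 and G4 6.78, beside 6.72 in G2. On the dimmer probe G4 was 6.76 and G5 6.26, beside 6.32 in C2. G exceeded T by 0.28 (SE 0.118, unadjusted p = 0.0322, adjusted p = 0.409) and did not pass the threshold. Its brighter probe was well above background on 2 of 4, 4 of 5 and 6 of 6 arrays of C, T and G. Its dimmer probe was so on 0 of 4, 0 of 5 and 2 of 6. For G minus C the 2 probes gave 0.33 (SE 0.174) and -0.009 (SE 0.147).

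Tbx3, a T-box repressor, was 8.95, 9.17 and 9.68 in C, 9.08, 8.90, 9.79 and 9.57 in T, and 9.64, 9.72, 10.58, 9.95, 9.69 and 9.56 in G. Mouse G3 was the highest and the groups overlapped. G exceeded T by 0.52 (SE 0.226, unadjusted p = 0.0393, adjusted p = 0.432) and C by 0.59 (SE 0.247, unadjusted p = 0.0338, adjusted p = 0.328), neither past the threshold.

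Lgr5, an R-spondin receptor, was 6.18, 6.18 and 6.56 in C, 6.50, 6.23, 6.56 and 6.71 in T, and 6.18, 6.19, 6.48, 6.56, 6.71 and 6.36 in G, with no group apart. Its means were 6.31 ± 0.22 (SD, n = 3) in C, 6.50 ± 0.20 (SD, n = 4) in T and 6.41 ± 0.21 (SD, n = 6) in G. The widest of its differences, T minus C, was 0.20 (SE 0.147, adjusted p = 0.502). Its probe was well above background on 2 of 4, 4 of 5 and 4 of 6 arrays of C, T and G. It was not in C1, C2, T2, G1 and G2, the lowest mice of their groups, so the differences and correlations of Lgr5 include values near background.

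Glul, Rhbg, Oat, Slc1a2 and Lect2 carry the work and the signals of the pericentral hepatocyte. Glutamine synthetase (Glul) fixes ammonia into glutamine, RHBG carries ammonium across the membrane, ornithine aminotransferase (Oat) feeds glutamate synthesis, SLC1A2 takes up glutamate, and LECT2 is a secreted hepatokine. None of their differences between groups passed the test. Glul was 11.93, 11.77 and 12.09 in the mice of C, 11.96, 11.78, 11.84 and 12.42 in T, and 11.82, 11.95, 11.88, 11.90, 12.75 and 12.23 in G. The groups overlapped, with T4 and G5 the highest. The mean of Glul was 11.93 ± 0.16 (SD, n = 3) in C, 12.001 ± 0.29 (SD, n = 4) in T and 12.089 ± 0.36 (SD, n = 6) in G. G minus T was 0.09 (SE 0.178, adjusted p = 0.903).

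Oat was 9.14, 8.66 and 9.52 in C, 8.92, 7.99, 8.46 and 9.27 in T, and 8.26, 8.35, 8.26, 9.20, 10.22 and 9.43 in G, with the highest mouse in G and the lowest in T. Oat had the widest difference of the 10 downwards between T and C, at -0.45 (SE 0.457, adjusted p = 0.642), with means of 9.11 ± 0.43 (SD, n = 3) in C, 8.66 ± 0.55 (SD, n = 4) in T and 8.95 ± 0.80 (SD, n = 6) in G. When arrays were scaled to a common median instead, T minus C for Oat was 0.39 (adjusted p = 0.74), and the median of all genes itself moved to 0.12, so the direction of Oat was not settled. Rhbg was 8.995, 8.029 and 8.994 in C, 8.50, 8.40, 8.39 and 8.97 in T, and 8.10, 7.98, 7.54, 8.72, 9.82 and 8.83 in G, and the lowest and the highest mouse were both in G. Its means were 8.67 ± 0.56, 8.57 ± 0.28 and 8.50 ± 0.81 (SD, n = 3, 4 and 6), and its T minus C of -0.11 turned to 0.66 (adjusted p = 0.458) under that scaling.

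Slc1a2 was 7.49 ± 0.28, 7.54 ± 0.16 and 7.67 ± 0.36 (SD, n = 3, 4 and 6). The second of its probes was well above background on 3 and the third on 2 of the 4 arrays of C, and both were on all arrays of T and G. The probes disagreed in sign for T minus C, at -0.31 (SE 0.265), 0.27 (SE 0.268) and 0.20 (SE 0.158), none past the threshold. Lect2 was 12.77 ± 0.06, 12.68 ± 0.41 and 12.70 ± 0.32 (SD, n = 3, 4 and 6), and its T minus C of -0.09 (SE 0.219, adjusted p = 0.872) was 0.92 (adjusted p = 0.182) under median scaling.

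**Figure D3:**
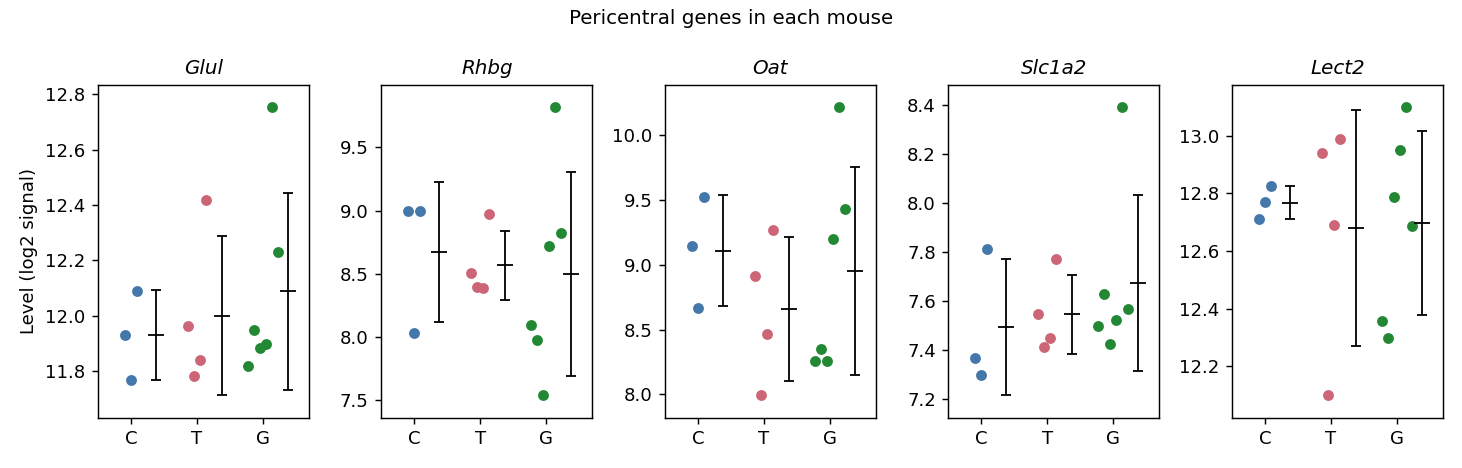
Level (log2 of the normalized signal, y axis, own scale in each panel) of Glul, Rhbg, Oat, Slc1a2 and Lect2 in each mouse of groups C (blue), T (red) and G (green), with the group mean and SD in black. The groups overlap in every panel, and 1 G mouse, G5, is the highest of its group in all 5.

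The pericentral genes varied together between mice of the same group. Mouse G5 was the highest of group G in all 5 genes, at 12.75 for Glul, 9.82 for Rhbg, 10.22 for Oat, 8.39 for Slc1a2 and 13.10 for Lect2. It was also the highest in Nkd1 and Lgr5, at 6.90 and 6.71, but not in Tbx3, at 9.69, or in Wif1, at 6.09. In T, mouse T4 was the highest in the same 5 genes (Glul 12.42, Rhbg 8.97, Oat 9.27, Slc1a2 7.77 and Lect2 12.99), on both of its arrays for Glul (12.47 and 12.36). Mice G1 and G2 lay below the group mean in all 5 (Oat 8.26 and 8.35). Array G5 also carried the most spots with an outlier flag, 3692 against 218 to 2213 on the other arrays, and the part of this in its values was not tested. Spots well above background numbered 29765, 27654 and 26618 on G4, G5 and G6, where Oat was 9.20, 10.22 and 9.43. They numbered 21047, 18041 and 24364 on G1, G2 and G3, where Oat was 8.26, 8.35 and 8.26. C2 and T2 had the fewest in their groups (15707 and 19970) and the lowest Oat (8.66 and 7.99). G4, with the most of all arrays, had a Glul of 11.90, below the group mean of 12.089. Whether array-wide signal bears on this co-variation was not tested.

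Across the 13 mice, after the mean of its own group was taken from each value, the 10 pairs among these 5 genes had Pearson r of 0.505 to 0.918 (median 0.805). The strongest was Rhbg with Oat (r = 0.918, rho = 0.896), followed by Glul with Slc1a2 (r = 0.902, rho = 0.841) and Glul with Oat (r = 0.894, rho = 0.896). Over all 45 pairs of the 10 genes r ran from -0.491 to 0.918 (median 0.437). Without G5 the 10 pericentral pairs ran from 0.283 to 0.853 (median 0.645), so the relation rests in part on that mouse. With each of the other mice left out in turn the median stayed between 0.79 and 0.847. These are descriptions over mice whose arrays share slides and normalization and differ in the number of spots well above background.

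Lgr5 followed Lect2 most closely (r = 0.860, and 0.823 without G5) and Oat (r = 0.776). Nkd1 followed Rhbg (r = 0.697) and Oat (r = 0.626), but without G5 these values were 0.376 and 0.299. Tbx3 was related to Lgr5 (r = 0.563) and hardly to Glul (r = -0.03) or Oat (r = -0.05). Wif1 had r of -0.163 to 0.292 with the other 9 genes within groups.

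**Figure D4:**
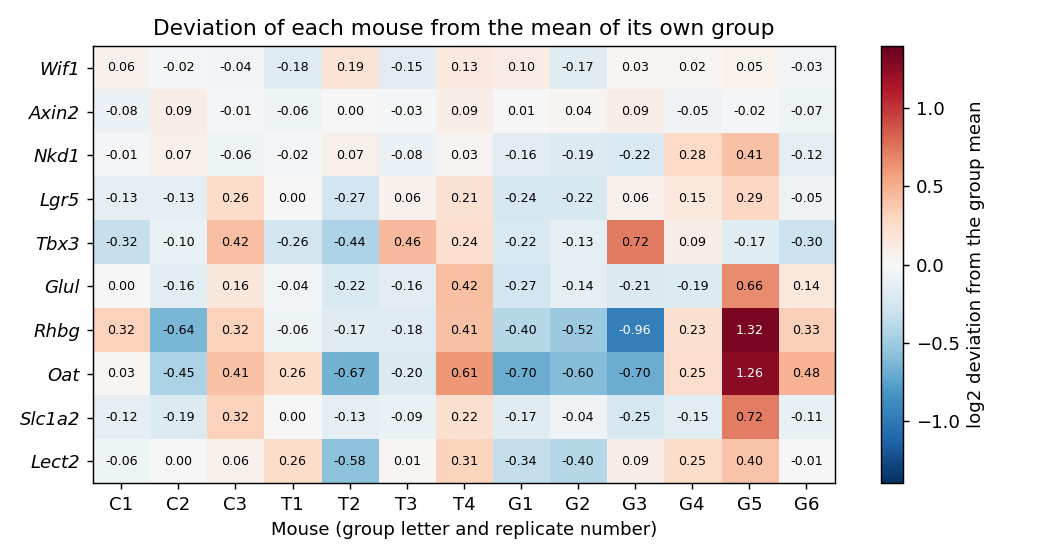
Deviation (log2, colour and printed value) of each of the 13 mice (x axis) from the mean of its own group, for the 10 genes (y axis). The column of G5 is positive in all 5 pericentral genes, up to 1.32 in Rhbg, and the row of Wif1 stays between -0.18 and 0.19.

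The genes whose level was most like that of Wif1 over the 13 mice, among 11582 genes compared, were Dfna5 (r = 0.958), a gasdermin, Bcmo1 (r = 0.953), the enzyme that cleaves β-carotene, Nucb2 (r = 0.943), the precursor of nesfatin, Tfrc (r = 0.943), the transferrin receptor, and Dpf1 (r = 0.932). All 5 were higher in T than in C, by 0.41 (Dfna5), 0.36 (Bcmo1), 0.56 (Nucb2), 0.21 (Tfrc) and 0.27 (Dpf1), which follows from how they were chosen. Dfna5 and Nucb2 were well above background on 1, 5 and 4 arrays of C, T and G. Tfrc was so on 0, 5 and 5, Dpf1 on 1, 4 and 2 and Bcmo1 on 3, 5 and 6. Wif1 itself was so in T alone, so these r include values close to background. For Glul the closest were Lhpp (r = 0.932), a histidine phosphatase, Onecut1 (r = 0.907), a hepatocyte transcription factor, Slc1a2 (r = 0.906), Srbd1 (r = 0.836) and Oat (r = 0.827). Slc1a2 and Oat are thus among the 5 genes closest to Glul among the 11582 genes compared. This ranking includes mouse G5, the highest in all 3 of these genes, and was not repeated without it. Within groups, r with Glul went from 0.902 to 0.754 for Slc1a2 and from 0.894 to 0.808 for Oat when G5 was left out.

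Other genes of the Wnt pathway were examined by lists. Of 26 ligands, R-spondins and their processing factors, 1 was called: Porcn, the acyltransferase that lipid-modifies Wnt proteins, rose in T over C (6.16 ± 0.20 in C, SD, n = 3, against 6.53 ± 0.12 in T, SD, n = 4, log2 difference 0.37, SE 0.0867, adjusted p = 0.0467). The call held under 14 of 34 alternatives and the direction under all 34. In T minus C, 2.37% of all genes were called. Its G minus T was -0.13 (adjusted p = 0.565), and it was well above background on 2, 5 and 5 arrays of C, T and G. Wnt2 and Wnt4, Wnt ligands, had T minus C of -0.17 and -0.21 (adjusted p = 0.25 and 0.162). Wnt2 was well above background on 2, 1 and 4 arrays of C, T and G and Wnt4 on 2, 0 and 3, so these values are close to background. Wnt5a, another ligand, had a T minus C of 0.17 (adjusted p = 0.333) and a G minus T of -0.14 (adjusted p = 0.56). It was well above background on 2, 5 and 6 arrays of C, T and G. The median of the list was -0.01 for T minus C beside 0.005 over all genes, and 12 of its 26 genes were well above background on no array.

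Of 18 receptors and co-receptors, 0 were called in any comparison by limma, and 2, 3 and 0 had an unadjusted p under 0.05 in T minus C, G minus T and G minus C, in that order. The shares of all genes were 20.2%, 10.8% and 13.3%. Ryk, a Wnt co-receptor, had a T minus C of 0.30 (adjusted p = 0.19), and Fzd1, a Frizzled, one of -0.33 (adjusted p = 0.246) and a G minus T of 0.33 (adjusted p = 0.382). The 2 receptors of smallest unadjusted p between G and T, Fzd4 and Ror1, differed by 0.35 (adjusted p = 0.249) and 0.12 (adjusted p = 0.373). Ror1 was well above background on 0, 0 and 1 arrays of C, T and G, so its difference is between values close to background. Fzd4, the receptor of Norrin, was 8.42 ± 0.25 in T (SD, n = 4) and 8.76 ± 0.07 in G (SD, n = 6).

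Of 19 extracellular inhibitors, Wif1 was the one called, where 2.37% of all genes were called in T minus C and 0.132% in G minus T. The next, Dkk4, an inhibitor that binds LRP co-receptors and is itself a β-catenin target, was 6.16 ± 0.28 in C (SD, n = 3), 6.85 ± 0.44 in T (SD, n = 4) and 6.42 ± 0.19 in G (SD, n = 6). Its T minus C was 0.69 (SE 0.207, adjusted p = 0.0929) and its G minus T -0.43 (SE 0.175, adjusted p = 0.397), neither past the threshold. Dkk4 was well above background on 2, 4 and 5 arrays of C, T and G. Dkk1, another inhibitor of that family, was well above background on no array and had a T minus C of -0.16 (adjusted p = 0.266). The median of the list was -0.04 for T minus C and 0.04 for G minus T.

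Of 22 intracellular transducers, 0 were called in any comparison by limma, and 1, 3 and 3 had an unadjusted p under 0.05 in T minus C, G minus T and G minus C, in that order. The median of the list was 0.09 for T minus C beside 0.005 over all genes, -0.02 for G minus T and 0.05 for G minus C. Its mean level was 7.355 to 7.419 in C, 7.432 to 7.518 in T and 7.361 to 7.493 in G, so C and T did not overlap. β-catenin itself (Ctnnb1) was 8.68 ± 0.14 in C (SD, n = 3), 8.76 ± 0.09 in T (SD, n = 4) and 8.54 ± 0.15 in G (SD, n = 6), with G minus T of -0.22 (adjusted p = 0.341). Dvl3, a Dishevelled, had a T minus C of 0.92 (SE 0.383, adjusted p = 0.204), and Tcf7l2, a TCF/LEF factor, one of 0.19 (SE 0.0883, adjusted p = 0.253). Of 17 Wnt target genes, Axin2, Nkd1, Lgr5 and Tbx3 included, 0 were called by limma, and 0, 5 and 3 had an unadjusted p under 0.05, beside 20.2%, 10.8% and 13.3% of all genes. The 5 between G and T, which include Nkd1 and Tbx3 described above, were higher in G, and the list's median there was 0.09 beside -0.01 over all genes. Tnfrsf19, a receptor of the TNF family, was 0.29 higher in G than in T (SE 0.105, adjusted p = 0.34).

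Of 34 pericentral genes on the array, 9 of them members described above, 1 was called: Aldh1a1, a retinaldehyde dehydrogenase, fell from 15.10 ± 0.06 in C (SD, n = 3) to 14.26 ± 0.28 in T (SD, n = 4), a log2 difference of -0.84 (SE 0.156, adjusted p = 0.0202), but one of 0.24 (adjusted p = 0.678) under median scaling. Slc13a3, a dicarboxylate carrier, had a T minus C of 0.95 (adjusted p = 0.0802). The median of the list was -0.15 for T minus C, 0.09 for G minus T and -0.15 for G minus C. Of its genes, 23 were lower in T than in C and 22 were lower in G than in C. With median scaling, however, T minus C of the list stood at 0.37 relative to the median of all genes instead of -0.15. Of 26 periportal genes, Ass1, an enzyme of the urea cycle, fell by 0.60 (a log2 difference of -0.60, SE 0.0950, adjusted p = 0.0112, but 0.49 with adjusted p = 0.285 under median scaling), and Cdh1, E-cadherin, rose by 0.95 (SE 0.167, adjusted p = 0.0183, and 1.46 under that scaling), both in T against C. Their list median was 0.03. The calls in T minus C were thus 1 of 34 pericentral and 2 of 26 periportal genes, where 2.37% of all genes were called. Between G and T, 0 of the pericentral and 0 of the periportal genes were called by limma, and 5 and 8 had an unadjusted p under 0.05, beside 10.8% of all genes. Gstm3, a glutathione transferase, had a G minus T of 0.83 (SE 0.254, adjusted p = 0.238), and Blvrb, a biliverdin reductase, one of 0.43 (SE 0.151, adjusted p = 0.34) with values in 4 of the 6 mice of G, the others being missing for outlier flags. Of the periportal genes, Fbp1, an enzyme of gluconeogenesis, had a G minus T of 0.27 (SE 0.0730, adjusted p = 0.171), and Hsd17b13, a lipid droplet protein, one of 0.97 (SE 0.293, adjusted p = 0.234). Median scaling likewise called 0 of both lists there.

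**Figure D5:**
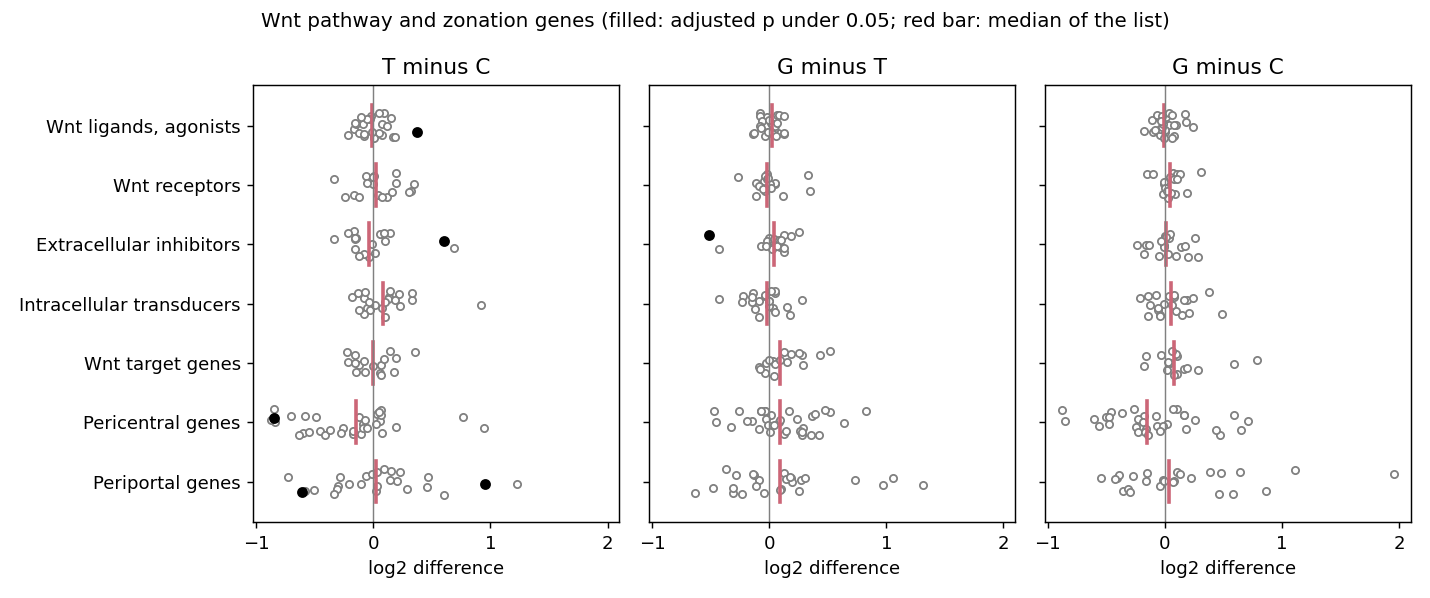
Log2 difference of group means (x axis) of each gene in 7 lists (y axis; 5 lists of Wnt pathway genes, pericentral and periportal genes) for T minus C, G minus T and G minus C. Filled points have an adjusted p under 0.05 and red bars mark list medians: Wif1 is the one filled point in G minus T, and there is none in G minus C.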

How the data were processed

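Labelled RNA of mouse livers was hybridised to single-colour Agilent arrays (15 arrays, 2 slides, each slide with all 3 groups). The deposited files hold the intensity of each spot as Agilent Feature Extraction 10.7.3.1 measured it, and the authors also deposited a table of log2 values, which lay within 0.05 of the values here for 99% of genes. Per the labels RNA was extracted with TRIZOL, whereas the study's methods name a spin kit.

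Mean signals were corrected for background with normexp (offset 50), and their log2 values were quantile normalized over 59305 non-control spots. The study's methods name normexp and quantile normalization, and the offset and the set of spots were chosen here. Spots with an outlier flag were set to missing, spots of a probe were averaged, and the centred probes of a symbol were averaged. Arrays that share an RNA code were averaged because each was the closest to the other in its group (SD of log2 differences 0.1447 against 0.2896 for the next pair in C, and 0.1425 against 0.2313 in T). Groups were compared with limma 3.58.1 in R 4.3.3 (lmFit and eBayes over 3 groups), with Benjamini-Hochberg adjustment over 22032 symbols and a threshold of 0.05, after tests on simulated data. Folds given as at least compare the brighter group's mean with the dimmest signal that passed as above background on the other group's arrays. The genes named were all 10 members and, from each list, those called and the 2 of smallest p in T against C and G against T, of which those in Wnt and zonation lists are described, with the 5 genes most like Wif1 and Glul among genes with a value in every mouse and well above background on at least 5 arrays. Probe positions are those of the files (mm9), and promoter sequences are RefSeq's (GRCm38.p6). Depth has no counterpart on arrays, and the number of mice limits the precision. The members and lists were chosen with earlier results of these data known. Figures were drawn with matplotlib 3.10.9 in Python 3.11.15.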

Additional observations from a re-analysis of the deposited data

Results flagged for a closer look

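Of 20 sets of values (10 genes in groups T and G), 1 held a mouse far from the others of its group: Slc1a2 in mouse G5, at 8.39, whose gap to the next mouse (7.63) was 0.791 of the whole range of the 6 mice of G. The limit used sets about 1 in 20 independent sets apart by chance, and these genes varied together. Array G5 carried 3692 spots with an outlier flag, the most of the 15 arrays, and whether that bears on its value was not tested.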

How the results depend on the processing

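The rise of Wif1 in T over C kept its direction under all 34 alternatives and its call under 30, with differences of 0.54 to 2.30 and adjusted p of 0.000751 to 0.266. Its fall in G against T kept its direction under all 34 (-2.13 to -0.45) and its call under 16 (adjusted p of 0.00539 to 0.388). Members called in T minus C numbered 1, and 0 by both forms of the methods' t-test (adjusted p = 0.148 and 0.266 for Wif1) and within slide 2. In G minus T they numbered 1, and 0 with the processed signal scaled to the 75th percentile, with only the 2 groups compared (adjusted p = 0.0695 for Wif1), by both forms of the methods' t-test and within either slide. They ranged from 1 to 1 and from 0 to 1 with 1 mouse left out, and were 0 in G minus C under all alternatives.

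The replicate number as a block left the count of genes called at 278 in T minus C, 6 in G minus T and 50 in G minus C, and called 0 members (Wif1 adjusted p = 0.0561 and 0.188 in T minus C and G minus T). The samples share only a number: deviations of same-numbered mice correlated at -0.241 to 0.2. Under the block the sign turned in Glul G minus C (-0.11), Glul G minus T (-0.11), Lect2 G minus T (-0.081), Lgr5 G minus C (-0.024), Oat G minus T (-0.14), Slc1a2 G minus C (-0.012) and Slc1a2 G minus T (-0.026).

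Genes called in T minus C numbered 523, and moved by over 1.5 times to 1949 with the 15 arrays as separate samples, 889 with the mouse as a random block over 15 arrays, 1142 with array weights, 186 with cyclic loess, 57 with the processed signal scaled to the 75th percentile, 2876 with median scaling, 814 with the slide as a further term, 0 by the methods' t-test in Welch's form, 0 by the methods' t-test with equal variances, 46 within slide 1 and 17 within slide 2. With 1 mouse left out they ranged from 95 to 746. Genes called in G minus T numbered 29, and moved by over 1.5 times to 268 with the 15 arrays as separate samples, 90 with the mouse as a random block over 15 arrays, 168 with array weights, 19 with a trended, robust eBayes, 3 with the processed signal scaled to the 75th percentile, 8 with median scaling, 13 without background correction, 63 over probes well above background on at least 3 arrays, 11 with only the 2 groups compared, 75 with the slide as a further term, 1 by the methods' t-test in Welch's form, 5 by the methods' t-test with equal variances, 7 within slide 1 and 4 within slide 2. With 1 mouse left out they ranged from 4 to 117. Genes called in G minus C numbered 94, and moved by over 1.5 times to 338 with the 15 arrays as separate samples, 228 with the mouse as a random block over 15 arrays, 1 with cyclic loess, 1 with the processed signal scaled to the 75th percentile, 0 with median scaling, 57 with only the 2 groups compared, 176 with the slide as a further term, 1 by the methods' t-test in Welch's form, 5 by the methods' t-test with equal variances, 1 within slide 1 and 6 within slide 2. With 1 mouse left out they ranged from 8 to 202. Higher genes made up 49.5% of the calls in T minus C, and 99.5% with median scaling. The causes were not tested. The multtest package, which the study's methods name for the arrays, was not among these alternatives, so none of these counts is the study's own.

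Of 1020 differences of members under alternatives, 66 turned their sign, none of them past the threshold under either setting. With the 15 arrays as separate samples, the sign turned in Lect2 G minus T (-0.044). With the mouse as a random block over 15 arrays, the sign turned in Lect2 G minus T (-8.9e-05). With array weights, the sign turned in Rhbg G minus T (0.026) and Slc1a2 T minus C (-0.027). With the brightest probe alone, the sign turned in Slc1a2 T minus C (-0.31). With cyclic loess, the sign turned in Slc1a2 T minus C (-0.039). With the processed signal scaled to the 75th percentile, the sign turned in Axin2 T minus C (-0.76), Axin2 G minus C (-0.61), Axin2 G minus T (0.14), Glul G minus T (-0.093), Lect2 T minus C (0.0497), Lect2 G minus T (-0.20) and Rhbg T minus C (0.036). With median scaling, the sign turned in Axin2 G minus C (-0.00036), Glul G minus T (-0.052), Lect2 T minus C (0.92), Lect2 G minus C (0.76), Lect2 G minus T (-0.16), Oat T minus C (0.39), Oat G minus C (0.58), Rhbg T minus C (0.66) and Rhbg G minus C (0.50). Without background correction, the sign turned in Axin2 G minus C (-0.0018). Within slide 1, the sign turned in Axin2 G minus C (-0.037), Glul G minus T (-0.12), Lect2 G minus C (0.022), Rhbg T minus C (0.17), Slc1a2 G minus T (-0.056) and Tbx3 T minus C (-0.25). Within slide 2, the sign turned in Lect2 T minus C (0.099), Lect2 G minus T (-0.29), Lgr5 G minus C (-0.074) and Slc1a2 T minus C (-0.053). With 1 mouse left out, differences that turned sign ranged from -0.0235 to 0.0598 for Axin2 G minus C, -0.0675 to 0.152 for Glul T minus C, -0.0449 to 0.227 for Glul G minus T, -0.192 to 0.104 for Lect2 T minus C, -0.152 to 0.00811 for Lect2 G minus C, -0.176 to 0.12 for Lect2 G minus T, -0.411 to 0.0489 for Oat G minus C, -0.429 to 0.0542 for Rhbg T minus C, -0.499 to 0.0151 for Rhbg G minus C, -0.334 to 0.122 for Rhbg G minus T, -0.0452 to 0.212 for Slc1a2 T minus C, -0.0163 to 0.202 for Slc1a2 G minus T and -0.0895 to 0.278 for Tbx3 T minus C.

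Signal limits Wif1, Axin2, Nkd1, Lgr5 and 2 of the 3 Slc1a2 probes, which were not well above background on every array, and the group sizes of 3, 4 and 6 mice limit all 10 genes.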
